A study of Mus musculus with 8 samples.

Results

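The 8 genes described here encode fibrillin microfibrils and the latent TGF-beta binders that attach to them. They are Fbn1, Fbn2, Mfap2, Mfap4, Mfap5, Ltbp1, Ltbp2 and Ltbp3, taken by symbol from the 32285 genes of the deposited matrix. Their RNA was read cell by cell, with droplet capture and antibodies carrying hashtag oligos, in the ascending thoracic aorta of 3 wild-type mice, the young animals of a study on aging of this vessel. The hashtag reference assigns hashtag 1 to 11 weeks, hashtag 2 to 12 weeks and hashtag 3 to 13 weeks, and each hashtag was read as 1 animal. The tissue was digested with collagenase and elastase, so RNA was read from cells freed from their matrix. Barcodes with at least 500 genes, at most 20% mitochondrial UMIs (unique molecular identifiers, 1 per captured RNA molecule) and fewer than 10 haemoglobin UMIs were kept.

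The kept barcodes were sorted into 5 groups by genes other than the members. Fibroblasts had at least 0.3% of UMIs from Dcn and were divided by whether Pi16, a gene of adventitial fibroblasts, was detected. Endothelial cells had at least 3 UMIs of Pecam1, Cdh5 and Gpihbp1, and macrophages at least 3 of C1qa, C1qb and C1qc. Smooth muscle cells (SMC) had at least 1.5% of UMIs from Acta2, Tagln and Myh11. Barcodes that met 2 of these rules were dropped. This gave 938 Pi16-detected fibroblasts, 457 Pi16-undetected fibroblasts, 699 endothelial cells, 74 macrophages and 6722 SMC. The median depth was 4831 UMIs in Pi16-detected fibroblasts, 4068 in Pi16-undetected fibroblasts, 2599 in endothelial cells, 3044.5 in macrophages and 7315.5 in SMC.

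Fibrillins polymerise into microfibrils, the thin beaded filaments on which elastin is laid down in the elastic layers of the aorta and which also run without elastin through the adventitia. Microfibril-associated proteins bind along these filaments. Latent TGF-beta binding proteins tether inactive TGF-beta to fibrillin and the surrounding matrix, from which it can be released. In humans, mutations of FBN1 cause Marfan syndrome, with aneurysm of the ascending aorta.

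The groups were set against markers that the sorting had not used. All 8 muscle markers were highest in SMC, all 7 endothelial and all 7 macrophage markers were highest in their own group, and each of the 6 fibroblast markers was highest in a fibroblast group. Markers were also found outside their own group. The summed muscle markers stood at 9.53% of their SMC level in Pi16-detected fibroblasts, 13.1% in Pi16-undetected fibroblasts, 16.5% in endothelial cells and 12.6% in macrophages. Markers of mesothelium (Msln, Upk3b and Krt19) summed to 24.3 counts per 1000000 UMIs (CPM) in Pi16-detected fibroblasts and 343 CPM in Pi16-undetected fibroblasts, over all barcodes. In the barcodes with a single hashtag, on which the tests rest, the sum per animal ranged from 0 to 184 CPM in Pi16-detected fibroblasts and from 489 to 1110 CPM in Pi16-undetected fibroblasts. Over all endothelial barcodes Fabp4 stood at 24841 CPM and Vwf at 145 CPM, and lymphatic markers (Prox1, Lyve1 and Mmrn1) summed to 231 CPM. The endothelial group was not divided by kind of vessel. The hashtags named 1 animal for 20.04% of Pi16-detected fibroblasts, 20.8% of Pi16-undetected fibroblasts, 74.8% of endothelial cells, 78.4% of macrophages and 20.9% of SMC, and the tests rest on these 2271 barcodes. Their counts were summed per animal and group, and the smallest sum, of macrophages with hashtag 1, held 16 barcodes and 47739 UMIs, against 4073254 UMIs in the largest, of SMC with hashtag 1. Animals are named below by their hashtag, in the order 1, 2 and 3, and each level given for an animal is CPM after scaling by TMM, edgeR's normalization. The oligos that mark the animals in the library were these.
hashtag 1: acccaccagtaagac
hashtag 2: ggtcgagagcattca
hashtag 3: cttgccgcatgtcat

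Of the 8 genes, 7 passed the filter on low counts and were tested among 6701 genes, with edgeR's quasi-likelihood test, the animal as a block and Benjamini-Hochberg adjustment. Against SMC, 3 of the 7 were higher in Pi16-detected fibroblasts (Fbn1, Mfap2 and Mfap5) and 3 were lower (Ltbp1, Ltbp2 and Ltbp3). Of all genes tested, 39.5% passed in that comparison, 19.6% higher and 19.9% lower. In Pi16-undetected fibroblasts the same 3 were higher, while Mfap4 and Ltbp1 were lower, where 29.4% of all genes passed, 15.4% higher and 13.9% lower. In endothelial cells no member was higher and 6 were lower, where 54.2% of all genes passed and 28.4% were lower. In macrophages no member was higher and 6 were lower, where 37.2% of all genes passed and 20.7% were lower. The median log2 fold change of the 7 genes against SMC was -0.16 in Pi16-detected fibroblasts, -0.24 in Pi16-undetected fibroblasts, -1.63 in endothelial cells and -2.79 in macrophages. Over all genes tested the median was -0.27 in macrophages and between -0.04 and -0.03 in the other 3 groups. How far the macrophage values of the members carry this shift was not tested. Against endothelial cells, 6 members were higher and none lower in Pi16-detected fibroblasts (40.6% of all genes passed) and likewise 6 in Pi16-undetected fibroblasts (30.9% of all genes). Against macrophages, 6 members were higher and none lower in Pi16-detected fibroblasts (28.7% of all genes) and 6 in Pi16-undetected fibroblasts (26.8% of all genes). In endothelial cells against macrophages 2 were higher, Ltbp1 and Ltbp3, with 26.0% of all genes passing.

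**Figure D1:**
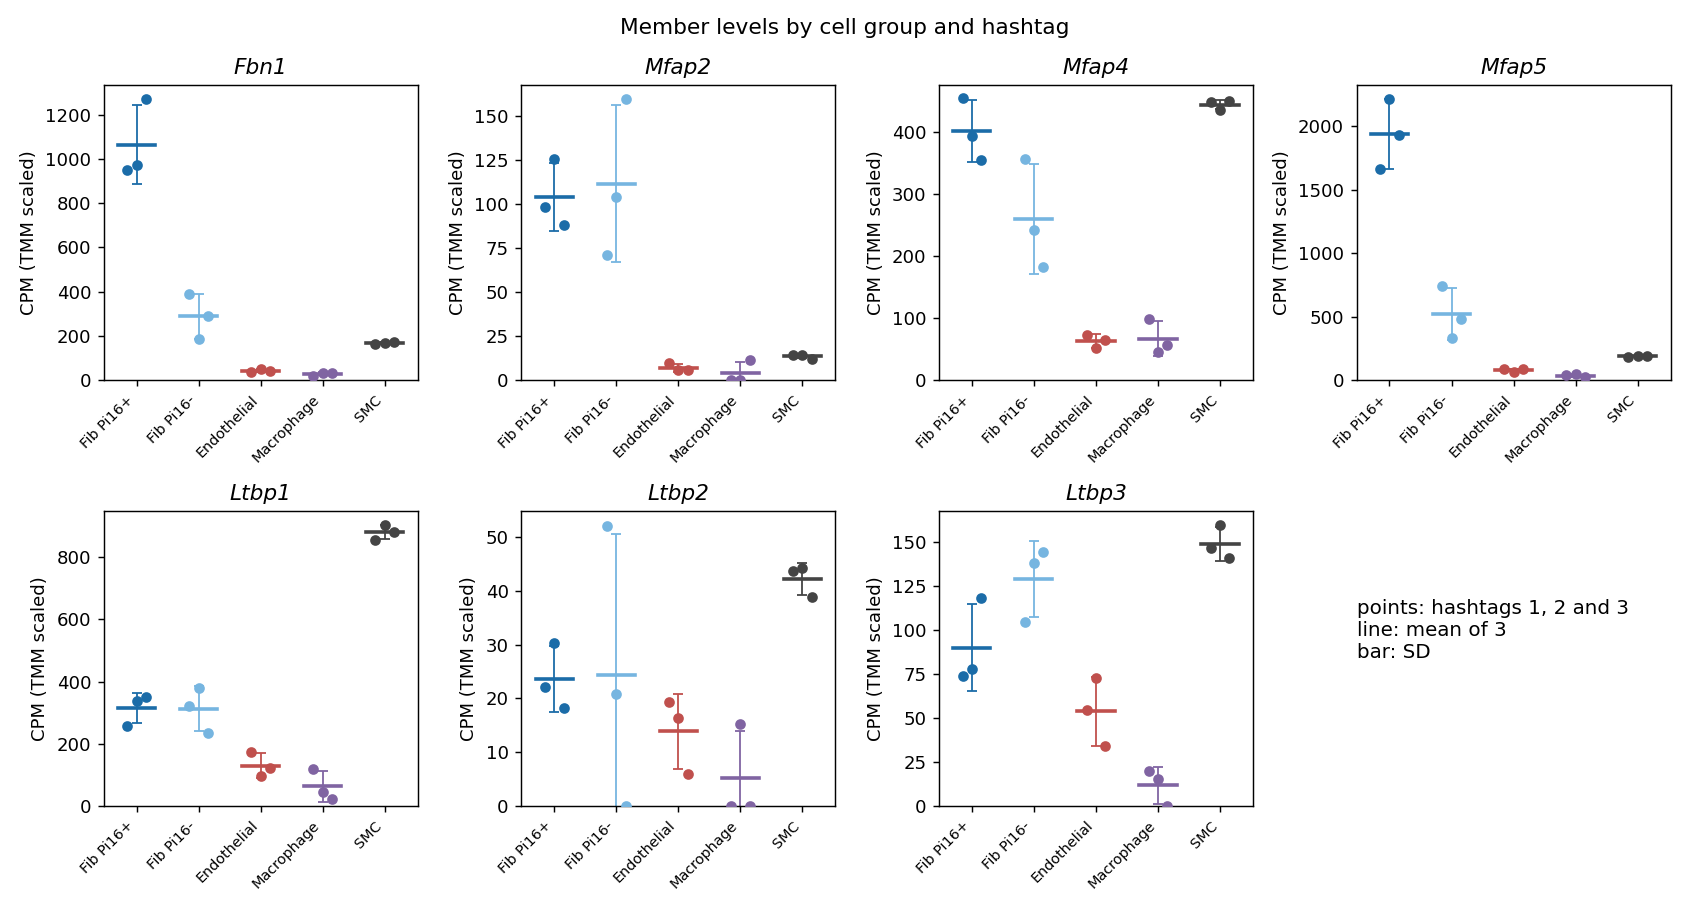
Levels of the 7 tested genes (vertical axes, CPM after TMM scaling) in the 5 groups (Pi16+ and Pi16- stand for Pi16-detected and Pi16-undetected fibroblasts), with 1 point per hashtag, the mean as a line and the SD as a bar. Fbn1, Mfap2 and Mfap5 stood highest in fibroblasts, and Ltbp1 stood highest in SMC in all 3 animals.

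The stretch upstream of a member's start is shown for 1 gene higher in fibroblasts (Fbn1), 1 higher in SMC (Ltbp1) and Ltbp2, whose levels are taken up in detail further on. Each window runs from 250 to 71 bases before an annotated start, 5′ to 3′ on the gene's strand, in RefSeq's GRCm38.p6. Fbn2 was left out beforehand, and the other members had 7 windows in all. For 5 of the 8 genes 1 window lay outside the annotated span of the gene, and this window was used. The Fbn1 window lies at chr2:125506509-125506688 on the minus strand, the Ltbp1 window at chr17:75005279-75005458 on the plus strand and the Ltbp2 window at chr12:84876562-84876741 on the minus strand, each upstream of the annotated gene. Capitals mark GGGCGG, the core of a GC box, and CAGAC, a short motif bound by Smad proteins downstream of TGF-beta, on either strand.
Fbn1: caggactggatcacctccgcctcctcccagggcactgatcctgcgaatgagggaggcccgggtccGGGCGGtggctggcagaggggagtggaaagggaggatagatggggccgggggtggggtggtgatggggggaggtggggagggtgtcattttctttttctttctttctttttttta
Ltbp1: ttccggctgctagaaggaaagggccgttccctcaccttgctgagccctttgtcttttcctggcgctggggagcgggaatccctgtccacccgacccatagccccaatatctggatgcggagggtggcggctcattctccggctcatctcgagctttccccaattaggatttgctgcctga
Ltbp2: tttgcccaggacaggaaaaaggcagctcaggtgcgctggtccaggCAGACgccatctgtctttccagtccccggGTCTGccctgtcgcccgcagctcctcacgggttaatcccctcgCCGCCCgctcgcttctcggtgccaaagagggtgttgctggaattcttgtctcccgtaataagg

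GGGCGG occurred once in the Fbn1 window and once in the Ltbp2 window, against 21.1% of 32851 promoter windows of the same length that held it. CAGAC occurred at 2 places in the Ltbp2 window and 1 place in the Mfap2 window, against 33.2% of all windows. No match of the 2 motifs overlapped another. Neither TATAAA, present in 8.37% of all windows, nor the CArG box, the site of serum response factor in muscle genes, present in 1.00%, was found in the windows of Fbn1, Mfap2, Ltbp1, Ltbp2 or Ltbp3. These are matches of letters only. The windows stop 71 bases before the start, so sites nearer to it could not be found. With only 5 windows, the absence of motifs this rare says nothing about these genes.

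Fbn1 encodes fibrillin-1, the main fibrillin of adult microfibrils, at chr2:125300594-125506485 (GRCm38.p6, as are the other positions). It stood at 949, 973 and 1272 CPM in Pi16-detected fibroblasts and at 389, 187 and 288 CPM in Pi16-undetected fibroblasts. It stood at 37.0, 49.1 and 41.2 CPM in endothelial cells, at 19.8, 30.5 and 33.6 CPM in macrophages and at 162, 168 and 172 CPM in SMC. All 3 animals had the same order of Pi16-detected fibroblasts, Pi16-undetected fibroblasts, SMC, endothelial cells and macrophages, and of the neighbours in this order only the difference between endothelial cells and macrophages did not pass the test. Fbn1 was 6.33-fold higher in Pi16-detected fibroblasts than in SMC (log2 fold change 2.66 ± 0.14 SE, adjusted p = 6.45e-19). In Pi16-undetected fibroblasts it was 1.78-fold higher than in SMC (log2 fold change 0.83 ± 0.18 SE, adjusted p = 0.000313). The second call was lost in 2 of 14 alternatives. Without the animal of hashtag 1 the second difference was 0.51, with an adjusted p of 0.105 by the same test. With hashtags centred per cell the adjusted p was 0.307 by this test. Over the alternatives the second difference ranged from 0.45 to 1.29. Endothelial cells had 3.97-fold less Fbn1 than SMC (adjusted p = 2.22e-11 by edgeR). Over all barcodes the endothelial level was 29.8% of the SMC level, inside the range of 12.1% to 31.4% of the 8 muscle markers in those cells. It was 4.74% of the Pi16-detected fibroblast level, where the 6 fibroblast markers lay between 0.971% and 7.58%. In macrophages Fbn1 rested on 6 UMIs in the tested sums. The part of RNA from other cells in these low levels was not tested. Although SMC had a lower level per UMI, they were the most numerous group and held 59.3% of the Fbn1 UMIs of the 5 groups, while both fibroblast groups together held 39.8% with 15.7% of the barcodes.

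Fbn2 encodes fibrillin-2, the fibrillin most abundant during development. It had 3 UMIs in the whole matrix, 1 in a barcode of no group and 2 in barcodes that met more than 1 group rule, and was not tested. With 0 UMIs in each of the 5 groups, a level of up to 0.629 CPM in Pi16-detected fibroblasts and 0.0602 CPM in SMC remains possible from 3 counts of each total. This limit covers counting error only.

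Mfap2 and Mfap5 encode the microfibril-associated glycoproteins MAGP-1 and MAGP-2, which bind fibrillin directly. Mfap2 lies at chr4:141010424-141015976 and Mfap5 at chr6:122513584-122529290. Mfap5 stood at 1665, 2218 and 1934 CPM in Pi16-detected fibroblasts, at 740, 332 and 485 CPM in Pi16-undetected fibroblasts and at 186, 189 and 190 CPM in SMC. The groups did not overlap. Mfap5 was 10.3-fold higher in Pi16-detected fibroblasts than in SMC (log2 fold change 3.36 ± 0.15 SE, adjusted p = 7.15e-21) and 2.83-fold higher in Pi16-undetected fibroblasts (1.5 ± 0.17, adjusted p = 4.90e-09). Endothelial cells had 86.9, 67.3 and 85.3 CPM and macrophages 39.6, 45.8 and 22.4 CPM, both below SMC. The fold of Pi16-undetected fibroblasts moved with the settings, from a log2 difference of 0.87 with hashtags centred per cell to 2.29 under stricter group thresholds. At least 1 Mfap5 UMI was found in 94.8% of Pi16-detected fibroblasts, 74.2% of Pi16-undetected fibroblasts, 14.0% of endothelial cells, 10.8% of macrophages and 47.9% of SMC. When each barcode was thinned to 1000 UMIs the shares were 69.7% of Pi16-detected fibroblasts, 40.9% of Pi16-undetected fibroblasts, 7.30% of endothelial cells, 5.41% of macrophages and 13.5% of SMC.

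Mfap2 was higher than in SMC in both fibroblast groups. It stood at 98.4, 125 and 88.0 CPM in Pi16-detected fibroblasts, at 71.1, 104 and 159 CPM in Pi16-undetected fibroblasts and at 14.2, 14.1 and 12.2 CPM in SMC. The 2 fibroblast groups overlapped and both lay above SMC in every animal. On the log2 scale the gene was 2.91 ± 0.25 (SE) higher in Pi16-detected fibroblasts than in SMC (adjusted p = 2.22e-12), and 2.96 ± 0.32 higher in Pi16-undetected fibroblasts (adjusted p = 8.15e-10), a 7.76-fold difference. Under stricter group thresholds these were 3.61 and 3.83. Endothelial cells held 6, 3 and 4 Mfap2 UMIs in the 3 animals, and their difference from SMC of -0.93 ± 0.42 on the log2 scale had an adjusted p of 0.0578 by edgeR. Macrophages held 1 Mfap2 UMI in all, 35.6% of the SMC level with an exact 95% interval from 0.899% to 199%. The level of Mfap2 in SMC over all barcodes was 11.3% of that in Pi16-detected fibroblasts. That of Fbn1 was 15.9% and that of Mfap5 8.51%, while 5 of the 6 fibroblast markers in SMC lay between 0.479% and 3.53% of theirs, and Col1a1 lay at 38.8%. In endothelial cells Mfap2 lay at 7.55% and Mfap5 at 4.46% of the Pi16-detected level, inside the range of 0.971% to 7.58% of the 6 fibroblast markers there.

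Mfap4 encodes a microfibril-associated glycoprotein that binds fibrillin and elastin fibres and is known from vascular smooth muscle. The gene lies at chr11:61485431-61488708. It stood at 455, 394 and 355 CPM in Pi16-detected fibroblasts, at 356, 242 and 182 CPM in Pi16-undetected fibroblasts and at 448, 435 and 449 CPM in SMC. Pi16-detected fibroblasts overlapped with SMC, and their log2 difference of -0.16 ± 0.13 did not pass the test (adjusted p = 0.377 by edgeR, interval of 2 SE from -0.42 to 0.11). It passed in 2 of 14 alternatives, at -0.58 with hashtags centred per cell (adjusted p = 0.0333) and at -0.37 with the ratio caller for hashtags (adjusted p = 0.0120). In Pi16-undetected fibroblasts Mfap4 was 1.68-fold lower than in SMC (log2 fold change -0.75 ± 0.16 SE, adjusted p = 0.000341), and -0.39 (adjusted p = 0.0652) when fibroblast barcodes with a mesothelial marker were left out, an alternative added after the data were seen. With a cell filter of 1000 UMIs and 10% mitochondrial UMIs it was -1.46 (adjusted p = 0.00267). Over all 457 Pi16-undetected barcodes, hashtag or not, Mfap4 stood at 357 CPM, 90.3% of the SMC level, so the difference was smaller than in the barcodes with a single hashtag. Levels were low in endothelial cells, at 72.4, 50.9 and 64.7 CPM, and in macrophages, at 98.9, 45.8 and 56.0 CPM. Over all barcodes the endothelial level was 16.7% of the SMC level, inside the range of 12.1% to 31.4% of the 8 muscle markers in those cells. The endothelial log2 difference from SMC was -2.82, and -3.45 with only barcodes under 0.75% muscle UMIs. SMC held 87.4% of the Mfap4 UMIs of the 5 groups, with 84.1% of all their UMIs. Over all barcodes Mfap4 stood at 396 CPM in SMC and at 393 CPM in both fibroblast groups together.

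**Figure D2:**
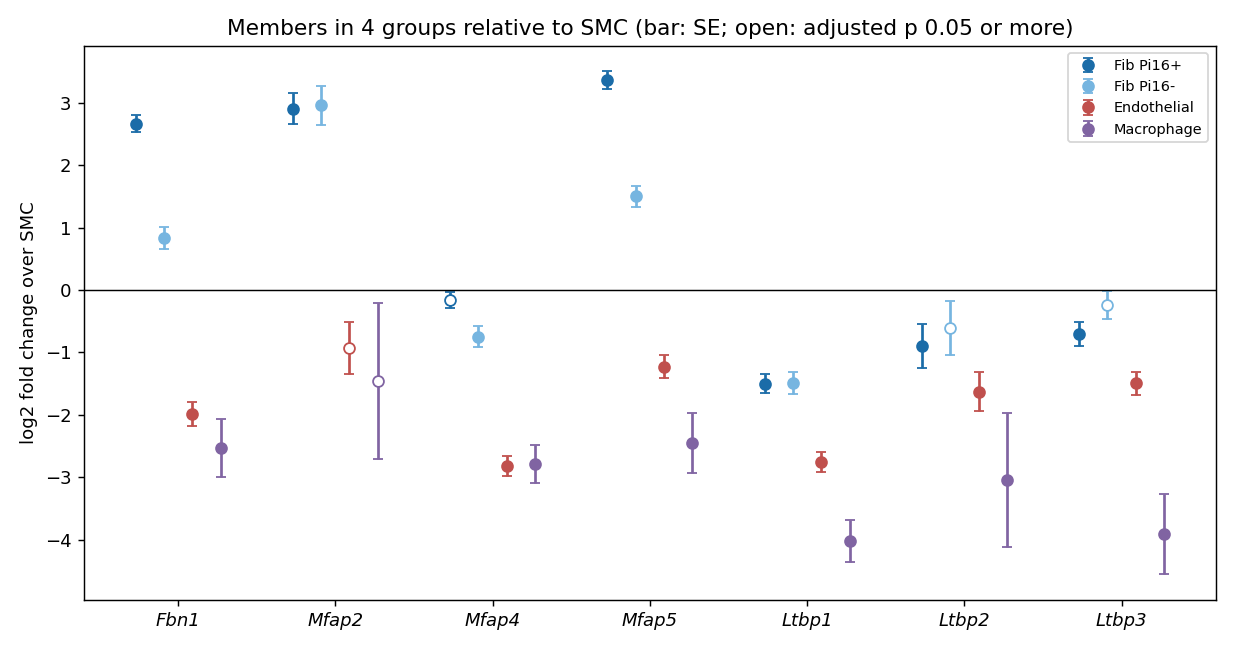
Log2 fold change over SMC (vertical axis, edgeR estimate with its SE as a bar) of the 7 tested genes in Pi16-detected fibroblasts, Pi16-undetected fibroblasts, endothelial cells and macrophages. Filled points passed an adjusted p of 0.05. The fibroblast points lie above 0 for Fbn1, Mfap2 and Mfap5 and below it for the other 4 genes, and all endothelial and macrophage points lie below 0.

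Ltbp1 encodes the latent TGF-beta binding protein 1, which is linked to the TGF-beta propeptide in the cell and carries the complex to the matrix. Of the 7 tested members it had the largest share of its UMIs in SMC. The gene lies at chr17:75005480-75392512. It stood at 258, 337 and 349 CPM in Pi16-detected fibroblasts, at 322, 380 and 235 CPM in Pi16-undetected fibroblasts, and at 857, 905 and 883 CPM in SMC. The SMC levels lay above every fibroblast level, and the fibroblast groups overlapped. Ltbp1 was 2.83-fold lower in Pi16-detected fibroblasts (log2 fold change -1.501 ± 0.157 SE, adjusted p = 2.94e-10) and 2.81-fold lower in Pi16-undetected fibroblasts (-1.49 ± 0.18, adjusted p = 9.48e-09) than in SMC. Levels were 174, 94.6 and 121 CPM in endothelial cells and 119, 45.8 and 22.4 CPM in macrophages, so that the gene was 6.77-fold lower in endothelial cells (adjusted p = 2.37e-17 by edgeR) and 16.3-fold lower in macrophages (adjusted p = 1.71e-12) than in SMC. Over all barcodes the endothelial level was 18.9% of the SMC level and so within the range of the muscle markers in those cells. With only barcodes under 0.75% muscle UMIs the endothelial log2 difference was -3.25, against -2.76 with all. The fibroblast levels of 36.8% in Pi16-detected and 38.0% in Pi16-undetected fibroblasts were above the highest muscle marker there, Smtn, at 15.4% and 20.1% of its SMC level. SMC held 94.3% of the Ltbp1 UMIs of the 5 groups with 84.1% of all their UMIs, and 97.0% of SMC barcodes had at least 1 Ltbp1 UMI.

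Ltbp3 encodes a family member that also binds the TGF-beta propeptide. The gene lies at chr19:5740900-5758536. It stood at 73.8, 77.8 and 118 CPM in Pi16-detected fibroblasts, at 104, 138 and 144 CPM in Pi16-undetected fibroblasts, at 54.7, 72.8 and 33.8 CPM in endothelial cells and at 147, 160 and 141 CPM in SMC. Pi16-undetected fibroblasts overlapped with SMC, and Pi16-detected fibroblasts lay below SMC in each animal. The gene was 1.64-fold lower in Pi16-detected fibroblasts than in SMC (log2 fold change -0.71 ± 0.19 SE, adjusted p = 0.00301). The call was lost in 3 of 14 alternatives, of which DESeq2 was 1. Without the animal of hashtag 1 the log2 difference was -0.51 with an adjusted p of 0.112 by edgeR. Under stricter thresholds for the groups it was -0.40 with an adjusted p of 0.136 by the same test. The difference of Pi16-undetected fibroblasts from SMC was -0.24 ± 0.23 (adjusted p = 0.480 by edgeR, interval of 2 SE from -0.69 to 0.21). Endothelial cells had 2.83-fold less than SMC (adjusted p = 5.63e-09 by edgeR). Macrophages held 2 UMIs in all, which is 5.60% of the SMC level with an exact 95% interval from 0.678% to 20.2%.

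Ltbp2 encodes the family member that binds fibrillin-1 but does not bind latent TGF-beta. The gene lies at chr12:84783212-84876558. It stood at 22.1, 30.3 and 18.2 CPM in Pi16-detected fibroblasts, at 52.2, 20.7 and 0 CPM in Pi16-undetected fibroblasts, and at 43.8, 44.2 and 38.8 CPM in SMC. Pi16-undetected fibroblasts thus spanned the SMC levels, on 11, 3 and 0 UMIs. In Pi16-detected fibroblasts the gene was 1.86-fold lower than in SMC (log2 fold change -0.90 ± 0.35 SE, adjusted p = 0.0381), on 9, 7 and 6 UMIs. The call was lost in 6 of 12 alternatives. Among them were all 3 that left out 1 animal, at adjusted p-values of 0.197, 0.0682 and 0.105 by edgeR without hashtag 1, 2 and 3. In these 3 the estimate stayed between -1.01 and -0.77. Endothelial cells had 3.10-fold less Ltbp2 than SMC (adjusted p = 2.87e-05 by edgeR), at 19.3, 16.4 and 5.88 CPM. This log2 difference of -1.63 was -2.94 with only barcodes under 0.75% muscle UMIs, and -0.96 (adjusted p = 0.0855) with a cell filter of 1000 UMIs and 10% mitochondrial UMIs. Macrophages had 1 UMI in all, 10.4% of the SMC level with an exact 95% interval from 0.263% to 57.9%. Their call against SMC (adjusted p = 0.0222 by edgeR) was lost in 3 of 10 alternatives, at adjusted p-values of 0.0605 with DESeq2, 0.0671 without hashtag 1 and 0.123 without hashtag 3.

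Ltbp2 was also read against Kcnj8, Abcc9 and Rgs5, a list of markers of pericytes, the mural cells of small vessels. Their summed level was 369 CPM in Pi16-detected fibroblasts, 605 CPM in Pi16-undetected fibroblasts and 623 CPM in SMC. In the same order Abcc9 stood at 280, 387 and 176 CPM and Kcnj8 at 37.9, 68.3 and 24.5 CPM, both lowest in SMC. Rgs5 stood at 51.2, 151 and 422 CPM, highest in SMC. Abcc9 made up most of the sum in both fibroblast groups, so these UMIs do not by themselves mark pericytes there. Pi16-detected fibroblast barcodes with 0, with 1 or 2, and with 3 or more UMIs of these markers had 9.65, 27.2 and 45.6 CPM of Ltbp2. In Pi16-undetected fibroblasts the levels were 21.2, 33.2 and 55.0 CPM, and in SMC they were 30.5, 33.1 and 47.1 CPM. These classes pool barcodes of all animals with barcodes of unknown animal. The exact 95% Poisson intervals of the lowest and the highest class did not overlap in any of these groups. Such intervals cover counting error only, and levels per animal are not given here for these groups. Median depth over the same classes was 4608.5, 4651 and 5193 UMIs in Pi16-detected fibroblasts. In these fibroblasts Mfap4 likewise stood at 183, 413 and 671 CPM over the 3 classes, while Fbn1 stood at 1368, 820 and 593 CPM. The part of depth and of these markers in the group differences was not tested. The classes were set after the data were seen and the values are a description.

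**Figure D3:**
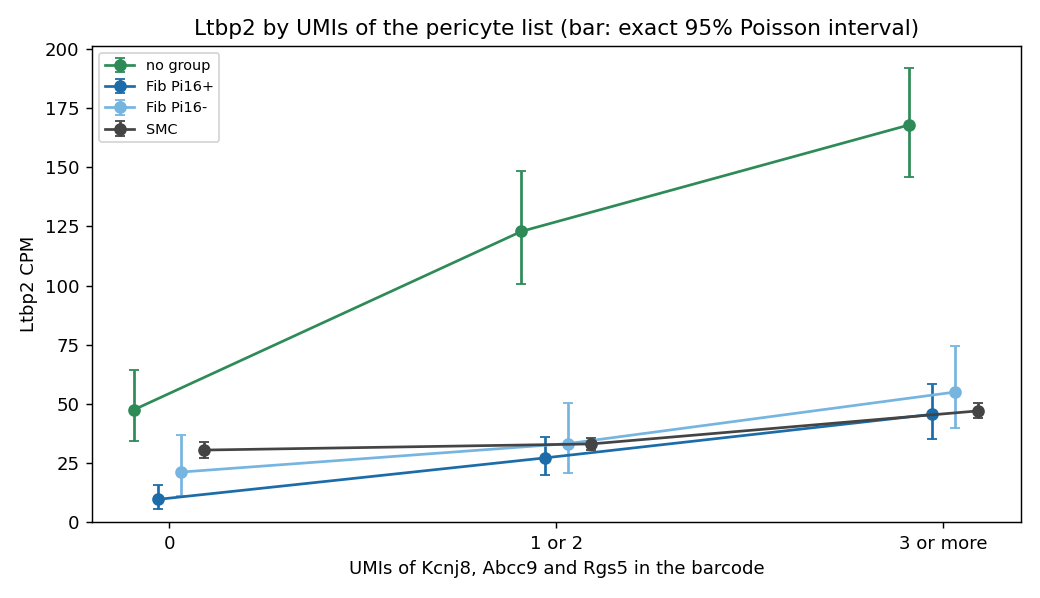
Ltbp2 level (vertical axis, CPM over all barcodes of a class) by the number of Kcnj8, Abcc9 and Rgs5 UMIs in a barcode (horizontal axis), for barcodes in no group, Pi16-detected fibroblasts, Pi16-undetected fibroblasts and SMC. Bars are exact 95% Poisson intervals, which cover counting error only. Levels were higher with 3 or more of these UMIs than with 0 in all 4 sets. The barcodes in no group reached 168 CPM, while those of them with a named animal stood at 73.2, 54.3 and 93.2 CPM in that class for hashtags 1, 2 and 3, each below the 111, 151 and 144 CPM of the middle class.

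Of the members, 3 were higher in Pi16-detected than in Pi16-undetected fibroblasts, none was lower and 4 did not pass. Pi16 encodes a secreted peptidase inhibitor and marks fibroblasts of the adventitia and of perivascular tissue. Fbn1 was 3.56-fold higher in Pi16-detected than in Pi16-undetected fibroblasts (log2 fold change 1.83 ± 0.17 SE, adjusted p = 6.36e-10). Mfap5 was 3.63-fold higher (1.86 ± 0.17, adjusted p = 2.87e-10). Both were higher in 3 of 3 animals with no overlap of the groups. Of all 6701 genes, 5.16% passed, 2.60% higher and 2.57% lower. Mfap4 was 0.59 ± 0.18 higher on the log2 scale (adjusted p = 0.0411 by edgeR), but its groups overlapped. When Pi16 was read after thinning each barcode to 1000 UMIs, the Mfap4 difference was -0.07 with an adjusted p of 0.901 by edgeR. Of the 15 alternatives, 12 others also lost the Mfap4 call. The other log2 differences did not pass. That of Ltbp1 was -0.01, with an interval of 2 SE from -0.42 to 0.40, and that of Mfap2 was -0.05, from -0.63 to 0.53. Ltbp2 gave -0.29, from -1.43 to 0.84, and Ltbp3 gave -0.47, from -1.03 to 0.09.

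Pi16-detected barcodes were deeper than Pi16-undetected ones, and mesothelial markers had at least 1 UMI in 2.45% of Pi16-detected and 7.66% of Pi16-undetected fibroblasts. With Pi16 read after thinning, the log2 difference was 1.61 for Fbn1 and 1.40 for Mfap5. With mesothelial-marker barcodes left out, it was 1.46 for Fbn1 and 1.55 for Mfap5, and all 4 values passed the same test. With hashtags centred per cell it was 2.58 for Fbn1 and 2.59 for Mfap5.

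Fibroblast barcodes were also arranged by the number of Pi16 UMIs left after thinning, which gave 762 barcodes with 0, 258 with 1, 143 with 2 and 232 with 3 or more. Fbn1 was higher in each next class, at 409, 739, 1034 and 1545 CPM, and so was Mfap5, at 876, 1582, 2330 and 3268 CPM. No exact 95% Poisson interval of neighbouring classes overlapped for either gene. Mfap4 stood at 413, 505, 390 and 226 CPM, lowest where Pi16 was highest. Ltbp2 stood at 36.7, 43.5, 8.15 and 9.67 CPM, on 131, 53, 6 and 12 UMIs. Ltbp1 stood at 314, 304, 306 and 293 CPM, and Mfap2 at 98.7, 103, 103 and 85.4 CPM, with intervals that overlapped across all classes. Ltbp3 stood at 119, 112, 114 and 71.7 CPM, and the interval of the class richest in Pi16, from 57.6 to 88.2 CPM, lay below those of the other 3. Barcodes of the 3 animals are pooled here together with barcodes of unknown animal, so no test was made.

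**Figure D4:**
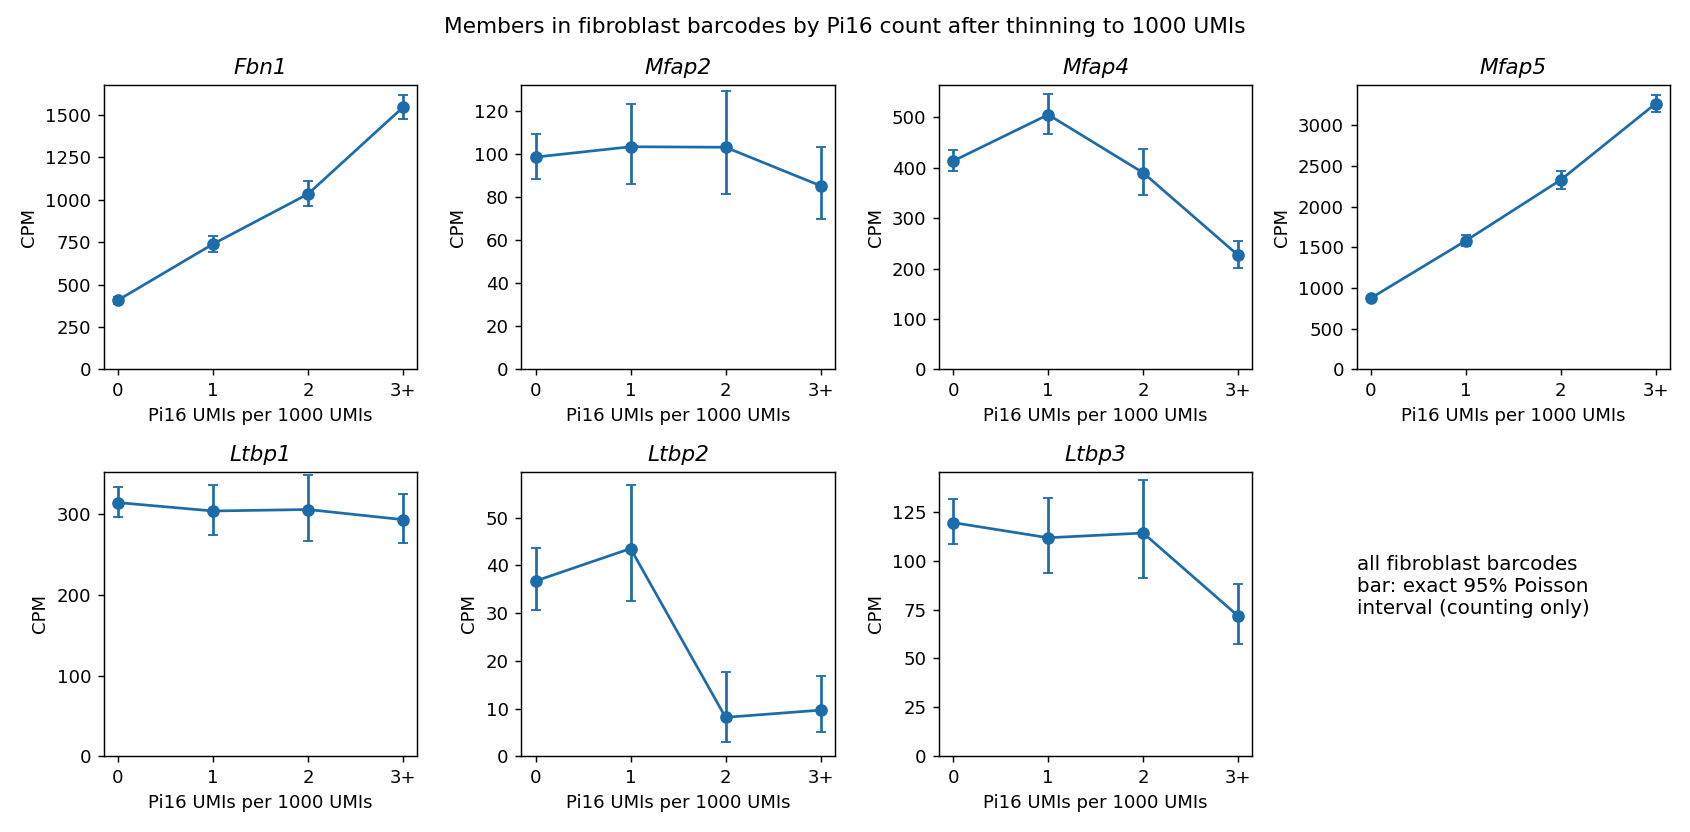
Level of each tested gene (vertical axes, CPM) in fibroblast barcodes with 0, 1, 2 and 3 or more Pi16 UMIs after thinning to 1000 UMIs (horizontal axes). Bars are exact 95% Poisson intervals for counting error. Fbn1 and Mfap5 are higher in each next class, Mfap4 and Ltbp2 are lowest in the 2 classes richest in Pi16, and the intervals of Ltbp1 and Mfap2 overlap across classes.

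Within the muscle cells, barcodes with Tnnt2 or Ptprz1 and no Pln were compared with those that had Pln and neither of the others. Tnnt2 encodes cardiac troponin T, Ptprz1 a receptor phosphatase and Pln phospholamban, the inhibitor of the sarcoplasmic calcium pump. There were 4189 Tnnt2/Ptprz1 SMC and 377 Pln SMC. Of 8635 genes 0.567% passed, and 0.220% were higher and 0.347% lower in the Tnnt2/Ptprz1 set. Mfap4 stood at 482, 468 and 478 CPM in Tnnt2/Ptprz1 SMC and at 162, 189 and 201 CPM in Pln SMC. The sets did not overlap, and the difference was 2.61-fold (log2 fold change 1.38 ± 0.15 SE, adjusted p = 6.37e-13). Mfap5 stood at 203, 205 and 193 CPM in Tnnt2/Ptprz1 SMC and at 135, 105 and 97.1 CPM in Pln SMC, and was 0.82 ± 0.20 higher on the log2 scale (adjusted p = 0.0167). The Mfap5 call was lost in 4 of 10 alternatives, while the difference stayed between 0.74 and 1.36. Without any 1 of the 3 animals it did not pass, at adjusted p-values of 0.111, 0.127 and 0.131 by the same test. With DESeq2 the adjusted p was 0.99985. Fbn1 (0.36 ± 0.20), Ltbp1 (0.14 ± 0.10), Ltbp2 (0.65 ± 0.38), Ltbp3 (0.12 ± 0.20) and Mfap2 (0.23 ± 0.73) did not pass. The Pln sums held 21 to 26 barcodes per animal.

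**Figure D5:**
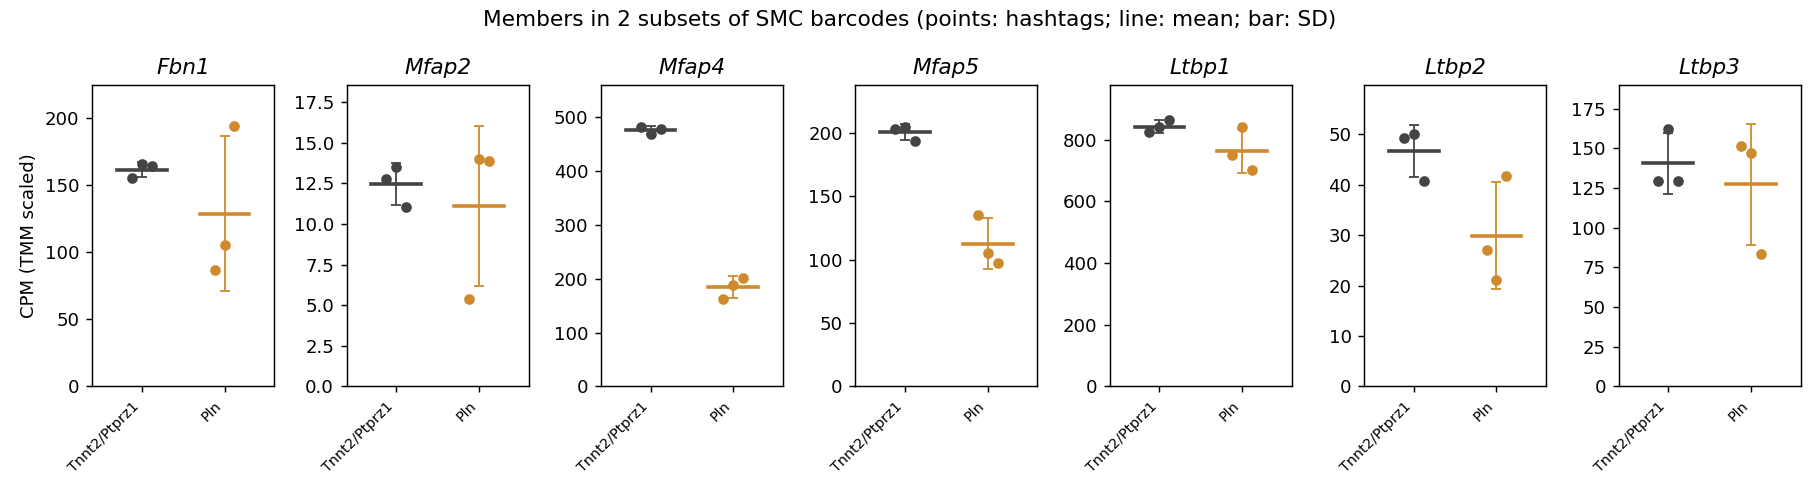
Levels of the 7 tested genes (vertical axes, CPM after TMM scaling) in Tnnt2/Ptprz1 SMC and Pln SMC, with 1 point per hashtag, the mean as a line and the SD as a bar. Mfap4 lies between 468 and 482 CPM in Tnnt2/Ptprz1 SMC and between 162 and 201 CPM in Pln SMC.

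The other genes of the fibrillin network were read from a list of 19, of which 16 were tested. Against SMC, 8 were higher and 6 lower in Pi16-detected fibroblasts, with a median log2 fold change of 0.38, where 19.6% of all genes were higher and 19.9% lower. Emilin2, an elastin interface protein, was 7.17 ± 0.35 higher on the log2 scale, with 2, 3 and 4 UMIs in SMC, Fbln1 (fibulin-1) 5.64 ± 0.16 and Efemp1 (fibulin-3) 5.18 ± 0.19. In Pi16-undetected fibroblasts 6 were higher and 5 lower (15.4% and 13.9% of all genes), led by Fbln1 at 5.36 ± 0.18. In endothelial cells 2 were higher and 10 lower (25.7% and 28.4% of all genes), among them Eln (elastin) at -2.33 ± 0.15 and Thsd4, which promotes microfibril assembly, at -2.74 ± 0.19, while Fbln2 (fibulin-2) was 3.53 ± 0.18 higher. In macrophages 1 was higher and 10 lower (16.5% and 20.7% of all genes), among them Eln at -3.79 ± 0.28. Between Pi16-detected and Pi16-undetected fibroblasts 3 were higher and none lower (2.60% and 2.57% of all genes), Emilin2 (2.26 ± 0.38), Fbln2 (1.47 ± 0.20) and Loxl1, a lysyl oxidase (0.99 ± 0.21). Eln was the 1 partner called higher in Tnnt2/Ptprz1 than in Pln SMC, at 0.59 ± 0.09, where 0.220% of all genes were higher. It stood at 1477, 1720 and 1528 CPM in Tnnt2/Ptprz1 SMC and at 849, 1611 and 784 CPM in Pln SMC, so the sets overlapped across animals. All are edgeR estimates with their SE.

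Of 22 genes for the release and reception of latent TGF-beta, 21 were tested. Against SMC, 4 were higher and 9 lower in Pi16-detected fibroblasts, where 19.6% of all genes were higher and 19.9% lower. In Pi16-undetected fibroblasts 5 were higher and 7 lower (15.4% and 13.9% of all genes), in endothelial cells 9 and 10 (25.7% and 28.4%), and in macrophages 4 and 10 (16.5% and 20.7%). The median log2 fold change of the list was -0.71 in Pi16-detected fibroblasts, 0.13 in Pi16-undetected fibroblasts, -0.09 in endothelial cells and -1.22 in macrophages. Tgfbr2, the type 2 TGF-beta receptor, was 2.55 ± 0.13 higher on the log2 scale in Pi16-detected fibroblasts than in SMC. Endothelial cells were higher than SMC in Nrros, an anchor of latent TGF-beta known from macrophages and microglia (4.43 ± 0.74), and in Eng, the co-receptor endoglin (3.99 ± 0.15), and lower in Tgfb3 (-3.19 ± 0.35). Nrros was 7.46 ± 0.80 higher in macrophages than in SMC, on 4, 3 and 16 UMIs in macrophages and 3, 2 and 0 in SMC. Pi16-detected fibroblasts had less Thbs1 (-3.06 ± 0.56), the TGF-beta activator thrombospondin-1, and more Tgfbr2 (0.94 ± 0.17) than Pi16-undetected ones. Ccn2 (0.51 ± 0.10) and Tgfb2 (1.08 ± 0.28) were higher in Tnnt2/Ptprz1 than in Pln SMC. They were 2 of 20 tested there, where 0.220% of all genes were higher. Ccn2 ran from 1210 to 1351 CPM in Tnnt2/Ptprz1 SMC and from 507 to 1254 CPM in Pln SMC, so its sets overlapped across animals.

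Likeness of pattern was measured as Pearson's r of log2 CPM over the 15 sums of 3 animals and 5 groups, among 5397 genes with at least 300 UMIs. The points share animals and groups, so r describes the order of the groups and no p is given. Fbn1 was most like Mfap5 (r = 0.976), and the genes most like Mfap5 included Fbn1 and Adamts5 (r = 0.975). Mfap2 was most like Gpc3 (r = 0.988), Pdgfra and Qpct. Mfap4 was most like Fxyd1 (r = 0.958), Ogn and Col4a5. Ltbp1 was most like Ift43 (r = 0.986), Rbp4 and Fyco1, Ltbp2 most like Wdr60 (r = 0.932), Fzd8 and Exosc4, and Ltbp3 most like Tmtc1 (r = 0.981), Mpdz and Edf1. Among pairs of members, Fbn1 with Mfap5 had the highest r, Ltbp1 with Ltbp3 the next (r = 0.883), and Ltbp2 with Mfap2 the lowest (r = 0.219).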

How the data were processed

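UMI counts, as deposited, were not normalized. Per the file headers the matrix was made with Cell Ranger 6.0.1 and covers 48467 barcodes. The submitters' processing notes list mm10 and Seurat 4.0.5. All barcodes carry 1 suffix, so they cannot be traced to the 8 libraries, and shared barcodes cannot be counted. The filter kept 9939 barcodes, of which 8890 fell in 1 group, 426 in several and 623 in none. HTODemux (Seurat 5.3.0, centred log ratios per hashtag, quantile 0.99) gave 2690 a single hashtag; 1291 with several were left out as doublets, and doublets within an animal remain. Counts were summed per hashtag and group (at least 10 barcodes) and fitted with edgeR 4.0.16 (TMM, filterByExpr, hashtag as block, because 1 animal gives every group) after tests on simulated data; DESeq2 1.42.0 was an alternative. SE is the log2 fold change over the root of F. Levels over all barcodes are plain CPM. Intervals are exact (Poisson or Clopper-Pearson, 95%) and cover counting error only. Each hashtag was read as 1 animal, which the labels do not state outright. On that reading the p-values rest on 3 animals. The members, lists and tests were chosen with earlier results of these data known. Of the gene lists, the 3 called genes with the largest change and the 1 with the smallest p could be named per comparison. Some genes that this rule or the likeness measure selected are not reported here.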

Additional observations from a re-analysis of the deposited data

Results flagged for a closer look

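A total of 623 kept barcodes fell in no group and entered no comparison. In them Ltbp2 stood at 119.8 CPM (363 UMIs, exact 95% Poisson interval 108 to 133 CPM), above the highest group level of 38.2 CPM in Pi16-undetected fibroblasts. Ltbp3 stood at 184.8 CPM (170 to 201 CPM), above the highest group level of 140.7 CPM in SMC. Both were marked because a signal in unused barcodes lay above every group. Among barcodes with 1 hashtag, Ltbp2 stood at 64.6, 64.6 and 67.1 CPM for hashtags 1, 2 and 3, on 23, 19 and 26 UMIs, so the barcodes with a named animal were lower than the whole set. Ltbp3 stood at 180, 133 and 87.7 CPM in the same animals, and was not above the SMC level for hashtags 2 and 3.

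The barcodes in no group were also read by their UMIs of Kcnj8, Abcc9 and Rgs5. With 0, with 1 or 2, and with 3 or more UMIs of these markers, and over barcodes with and without a hashtag, Ltbp2 stood at 47.6, 123 and 168 CPM, Ltbp3 at 107, 180 and 243 CPM and Ltbp1 at 353, 690 and 1034 CPM. In the barcodes of a named animal there was no such steady order. Ltbp2 stood at 19.7, 111 and 73.2 CPM for hashtag 1, at 0, 151 and 54.3 CPM for hashtag 2 and at 0, 144 and 93.2 CPM for hashtag 3, so it was lower with 3 or more than with 1 or 2 in each animal. Ltbp3 was likewise lower with 3 or more than with 1 or 2 for hashtag 1 (205 against 244 CPM) and hashtag 2 (136 against 232 CPM), but not for hashtag 3 (179 against 44.3 CPM). Over the 3 classes median depth was 2868, 4391 and 5098 UMIs, Acta2 stood at 2706, 3899 and 4443 CPM, and Fbn1 at 160, 225 and 272 CPM. S100a8, a gene of neutrophils, stood at 2951, 1832 and 268 CPM, and Cd79a, a gene of B cells, at 214, 5.69 and 1.58 CPM. The part of depth and of these other cells in the levels was not tested.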

How the results depend on the processing

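Over the comparisons with SMC and the 2 splits, 489 of the alternative results for single members were on the same side of the threshold as reported, 32 lost the call, 7 gained it and 1 changed sign. Fbn1 and Mfap5 in Pi16-detected fibroblasts (against SMC and against Pi16-undetected fibroblasts), Ltbp1 in every comparison with SMC, and Mfap4 in Tnnt2/Ptprz1 against Pln SMC kept their calls in all alternatives run. The sign change was Mfap4 between the fibroblast groups, at -0.072 when Pi16 was read after thinning, and 12 other alternatives of 15 lost that call.

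Members called lower in Pi16-detected fibroblasts against SMC numbered 1 with DESeq2 and 1 under stricter group thresholds, and 1 to 2 without 1 animal. In Pi16-undetected fibroblasts 1 member was higher with HTODemux centred per cell, 4 were lower with the ratio caller, and 1 was lower without mesothelial-marker barcodes. With DESeq2, 1 member was higher in Tnnt2/Ptprz1 SMC, and without 1 animal 1 to 1.

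Counts of all genes called moved by over 1.5 times as follows. Centring hashtags per cell gave 1267 in Pi16-detected fibroblasts, 1032 in Pi16-undetected fibroblasts and 2341 in endothelial cells against SMC, and 186 between the fibroblast groups. The stricter cell filter gave 1122 for Pi16-undetected fibroblasts against SMC, 122 between the fibroblast groups and 18 in the SMC split. The ratio caller gave 643 and 75 for these last 2. Between the fibroblast groups (346 as reported) the count was 201 with stricter groups, 188 with only the 2 groups in the fit, 227 without mesothelial-marker barcodes and 168 to 298 without 1 animal. In the SMC split (49 as reported) it was 16 with DESeq2, 87 without the low-count filter and 15 to 69 without 1 animal. The cause was not tested.

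With no replicate block, that is without the pairing by animal, counts were 2748 in Pi16-detected fibroblasts, 1996 in Pi16-undetected fibroblasts, 3744 in endothelial cells and 2501 in macrophages against SMC, 344 between the fibroblast groups and 35 in the SMC split. Mfap2 in endothelial cells then passed (adjusted p = 0.0478 by edgeR) and Mfap4 between the fibroblast groups did not (adjusted p = 0.0598). Of 35 levels, 31 lay within 1 SD when all barcodes replaced those with 1 hashtag. The 4 that moved were Mfap2, Mfap4 and Mfap5 in SMC and Mfap4 in Pi16-undetected fibroblasts. Barcodes with 1 hashtag are part of all barcodes, 74.8% of endothelial cells and 78.4% of macrophages. Closeness of the levels in those 2 groups was therefore largely built in. Under the stricter cell filter macrophages had too few barcodes for a value. Single-digit UMI counts limit Ltbp2 in fibroblasts and most members in macrophages.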
